A study of Homo sapiens with 9 samples.

Results

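The genes described here are 59 genes of the distal long arm of human chromosome 1, 59 of 60606 genes in the table, from BATF3 to MAP10. They were chosen by measured values: their symbols were listed because an earlier examination of the same libraries had found this stretch lower than in U87 and lowest in GSCs. Both contrasts with U87 and the contrast between GSCs and Diff cells were therefore used in choosing them, so the values of the members below are a description and carry no test. On the GRCh38 coordinates of GENCODE 29, all 59 were found, and the stretch ran from chr1:212686418-232808407, a length of 20.1 Mb. Of the 59, 56 had a mean above 1 TPM (transcripts of a gene per 1000000 transcripts of the library, with gene length divided out) and are described. VASH2, SUSD4 and RHOU lay below that limit, with means of 0.337, 0.0257 and 0.56 TPM, and are only listed. The members nearest the limit on its upper side were PSEN2 at 1.31, MARK1 at 1.40 and ITPKB at 1.495 TPM.

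The RNA-seq data comprised 9 libraries, 3 from each of 3 cell lines. U87 (U87WT) is an established human glioblastoma cell line grown with serum. GSCs (U87GSC) are stem cells derived from U87 that were repeatedly irradiated and kept in serum-free medium with EGF and bFGF. Diff cells (U87DIFF) were obtained by differentiating GSCs in serum and were expanded from selected colonies, so clonal selection cannot be told apart from differentiation. All 9 libraries thus come from 1 parental line, irradiation and medium changed together between U87 and GSCs, and U87 and Diff cells share serum but not the irradiation history. Nothing states that the 3 libraries of a line came from separate cultures, so the spread given here is that between libraries and may be technical.

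Transcripts of the mitochondrial genome made up 25.9% to 31.8% of TPM in the 9 libraries. RN7SL1, the RNA of the signal recognition particle, made up 8.77% to 9.79% in U87, 5.73% to 7.84% in GSCs and 6.67% to 8.54% in Diff cells. Libraries of 1 line correlated at 0.956 to 0.971 over all tested genes and libraries of different lines at 0.846 to 0.922. TPM does not keep sequencing depth, so the depth is unknown and no counting interval is given. Of the stem cell markers, FABP7, a fatty acid binding protein of radial glia, rose from 0.731 ± 0.228 TPM in U87 to 4.91 ± 0.796 in GSCs (SD, n = 3, limma, adjusted p = 2.66e-05). NES fell from 33.0 ± 2.22 to 22.6 ± 0.812 TPM (limma, adjusted p = 0.00047). PROM1, which encodes CD133, and SOX2 stayed below 1 TPM in all 9 libraries and were not tested. Both lay higher in every GSC library than in U87, with means of 0.507 and 0.879 TPM against 0.171 and 0.0383. The 4 stem cell markers summed to 32.4 to 36.4 TPM in U87, 27.5 to 29.8 in GSCs and 15.6 to 17.4 in Diff cells, mostly NES. The 4 glial markers summed to 8.85 to 11.0, 8.56 to 11.5 and 6.04 to 7.39 TPM, with the astrocyte water channel AQP4 at or near 0. The 4 neuronal markers summed to 10.8 to 14.5, 13.5 to 14.0 and 27.1 to 28.1 TPM, of which MAP2 had 7.95 ± 1.14, 8.22 ± 0.795 and 21.7 ± 1.02 TPM, while the markers of mature neurons RBFOX3 and SYP stayed below 1 TPM. The 5 markers of other cell types summed to 3.96 to 5.32, 6.80 to 8.61 and 3.95 to 4.99 TPM, mostly from 2 genes. The endothelial gene PECAM1 had 2.77 ± 0.935, 6.25 ± 0.868 and 2.92 ± 0.738 TPM and rose in GSCs against U87 (limma, adjusted p = 0.0056). The epithelial gene EPCAM had 1.64 ± 0.519, 1.18 ± 0.0527 and 1.30 ± 0.365 TPM. The leukocyte and microglia genes PTPRC and AIF1 and the endothelial gene CDH5 stayed below 1 TPM in every library.

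Genes that lie beside each other on a chromosome arm need not share a function. The members include housekeeping genes of protein targeting, ribosome assembly, Golgi traffic, nuclear pores, lipid metabolism and kinase signaling, and most of their complex partners and paralogs are encoded on other chromosomes. That separation makes it possible to set each member beside genes of the same machinery that do not share its position.

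The promoters of 4 members are shown first. They belong to the member with the lowest log2 difference of GSCs from U87, to a pair of neighbours that differed from each other, and to a member that was higher than in U87. Any relation of these sequences to the expression values was not tested. Each sequence holds 250 bases before and 50 bases after the start of the gene in RefSeq (GRCh38.p14), read 5′ to 3′ on the strand of the gene. CENPF, a kinetochore protein made before mitosis, had the lowest difference of log2(TPM + 1) in GSCs (-2.44), while its value in Diff cells was -0.35 and MARK1 and RAB4A had lower TPM ratios of GSCs to U87. Its promoter is at chr1:214602945-214603244 on the plus strand. NSL1, a kinetochore subunit, and TATDN3, a putative metal-dependent DNase, start 46 bases apart on opposite strands, so their windows at chr1:212791728-212792027 (minus strand) and chr1:212791644-212791943 (plus strand) share 216 bases. DUSP10, a phosphatase of the stress kinases p38 and JNK, has its window at chr1:221742040-221742339 on the minus strand. Capitals mark the letters of the CCAAT box (CCAAT or its reverse ATTGG), the CHR element of cell cycle promoters (TTTGAA or TTCAAA) and the GC box (GGGCGG or CCGCCC).
CENPF: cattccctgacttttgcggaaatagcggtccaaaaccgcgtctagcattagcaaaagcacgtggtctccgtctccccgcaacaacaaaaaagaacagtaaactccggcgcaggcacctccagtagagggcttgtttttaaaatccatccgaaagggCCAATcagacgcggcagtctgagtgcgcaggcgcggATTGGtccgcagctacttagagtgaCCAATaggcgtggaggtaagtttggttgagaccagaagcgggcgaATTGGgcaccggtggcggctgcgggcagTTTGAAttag
NSL1: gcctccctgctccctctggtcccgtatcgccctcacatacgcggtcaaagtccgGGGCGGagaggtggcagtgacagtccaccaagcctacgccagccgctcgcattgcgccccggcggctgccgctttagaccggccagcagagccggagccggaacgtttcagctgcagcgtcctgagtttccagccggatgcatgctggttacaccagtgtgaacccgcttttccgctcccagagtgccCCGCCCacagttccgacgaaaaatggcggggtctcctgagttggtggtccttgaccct
TATDN3: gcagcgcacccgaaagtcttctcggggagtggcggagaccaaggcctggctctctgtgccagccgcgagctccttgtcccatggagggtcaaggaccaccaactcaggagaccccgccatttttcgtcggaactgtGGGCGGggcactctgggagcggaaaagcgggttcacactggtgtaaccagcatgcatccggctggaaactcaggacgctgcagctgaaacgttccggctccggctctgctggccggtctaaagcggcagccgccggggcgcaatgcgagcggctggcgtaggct
DUSP10: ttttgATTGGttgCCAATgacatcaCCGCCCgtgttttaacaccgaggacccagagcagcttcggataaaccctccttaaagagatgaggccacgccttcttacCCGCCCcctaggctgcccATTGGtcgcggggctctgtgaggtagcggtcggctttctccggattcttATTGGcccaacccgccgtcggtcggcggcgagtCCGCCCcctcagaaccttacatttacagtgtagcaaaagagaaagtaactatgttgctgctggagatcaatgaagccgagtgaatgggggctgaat

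A promoter was found for 54 of the 59 members. The CENPF window held the CCAAT box letters at 4 places and the CHR letters once, beginning 40 bases after the start. The CHR letters stood in 3 of 54 member promoters (5.56%: CENPF, TAF1A and NVL) and in 15.2% of all 35116 promoters of the same length. The CCAAT letters stood in 17 member promoters (31.5%; 34.6% of all). GC box letters stood in 39 (72.2%; 45.0% of all), and the E-box CACGTG, which is left in lower case above, stood in 6 (11.1%; 7.26% of all). Median GC content was 66.3% in the member promoters, which ranged from 38.3% to 82.0%, and 58.7% over all promoters. The comparison set holds all genes of RefSeq, expressed in these cells or not. The matches are descriptions of letters and not of bound factors.

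As a group the members were lower in GSCs than in U87 and lay between the lines in Diff cells. The summed level of all 59 members was 2297, 2166 and 2250.0 TPM in the U87 libraries, 1139, 1127 and 1274 TPM in the GSC libraries, and 1555, 1469 and 1523 TPM in the Diff libraries. None of these 3 ranges overlapped. CAPN2 was the most abundant member, and without it the sums were 1890.0 ± 44.0, 1016 ± 74.4 and 1301 ± 38.1 TPM (SD, n = 3), in the same order. The TPM ratio of GSCs to U87 had a median of 0.534 over the 56 members, with quartiles at 0.437 and 0.655, and over all 22909 genes tested the median was 1.01 (quartiles 0.716 and 1.45). For Diff cells over U87 the median ratio was 0.689 (quartiles 0.611 and 0.792; all genes 0.968). For Diff cells over GSCs it was 1.33 (quartiles 1.10 and 1.55; all genes 0.948). In bulk RNA, fewer cells that hold a transcript and less of it per cell cannot be told apart.

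On the deposited scale, log2(TPM + 1), the median difference of GSCs from U87 was -0.81 over the 56 members and 0.02 over all genes tested. Values lay below 0 for 52 members and ran from -2.44 for CENPF to 0.81 for ITPKB. Of the 56, 47 were called lower at an adjusted p under 0.05 (limma), a call that 23.3% of all genes had, and 3 were called higher (25.3% of all genes). The 3 GSC libraries lay entirely below the 3 U87 libraries for 48 members (26.6% of all genes). A call with a log2 difference under -1 was made for 20 members (7.53% of all genes). The members are protein-coding, and of all tested protein-coding genes 30.1% were called lower and 30.1% higher in GSCs. In Diff cells against U87 these shares were 24.4% and 25.8%. The counts of members repeat the contrast by which they were chosen.

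The median difference of Diff cells from U87 was -0.51, against -0.04 over all genes, with 49 members below 0. There were 42 members called lower (20.5% of all genes) and 3 called higher (18.9% of all genes). Diff libraries lay entirely below U87 for 44 members (29.0% of all genes), entirely above for 5 (26.2% of all genes) and overlapped for 7. Only PTPN14, MARK1 and LBR among the 56 were called lower with a log2 difference under -1 (6.36% of all genes). Between Diff cells and GSCs the median was 0.35, against -0.06 over all genes, and 50 members lay above 0. Of them 26 were called higher (15.0% of all genes), and BATF3 was the 1 member called lower (19.8% of all genes), a call lost (0 members) with the replicate block, with quantile normalization and without Diff replicate 1 or 2. Diff libraries lay entirely above the GSC libraries for 36 members (19.8% of all genes).

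The order of the 3 means was GSCs, Diff cells, U87 from low to high in 44 members, 78.6% of the 56, an order that 20.7% of all genes had. In 27 of these 44 all 3 ranges were apart, and 5.46% of all genes had this order with all 3 ranges apart. Diff cells were lowest and U87 highest in 5 members, which were BATF3, TMEM63A, TP53BP2, FBXO28 and CNIH4. GSCs were lowest and Diff cells highest in FLVCR1, URB2 and PSEN2. U87 was lowest in ITPKB, DUSP10 and MAP10, with Diff cells highest, and in LYPLAL1, with GSCs highest. Per library, the median member stood at 0.03, -0.01 and -0.02 from the U87 mean in the U87 libraries, at -0.88, -0.98 and -0.64 in the GSC libraries and at -0.45, -0.54 and -0.49 in the Diff libraries. The GSC library nearest to the Diff range was replicate 3, and without it the median difference of GSCs from U87 was -0.92.

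**Figure D1:**
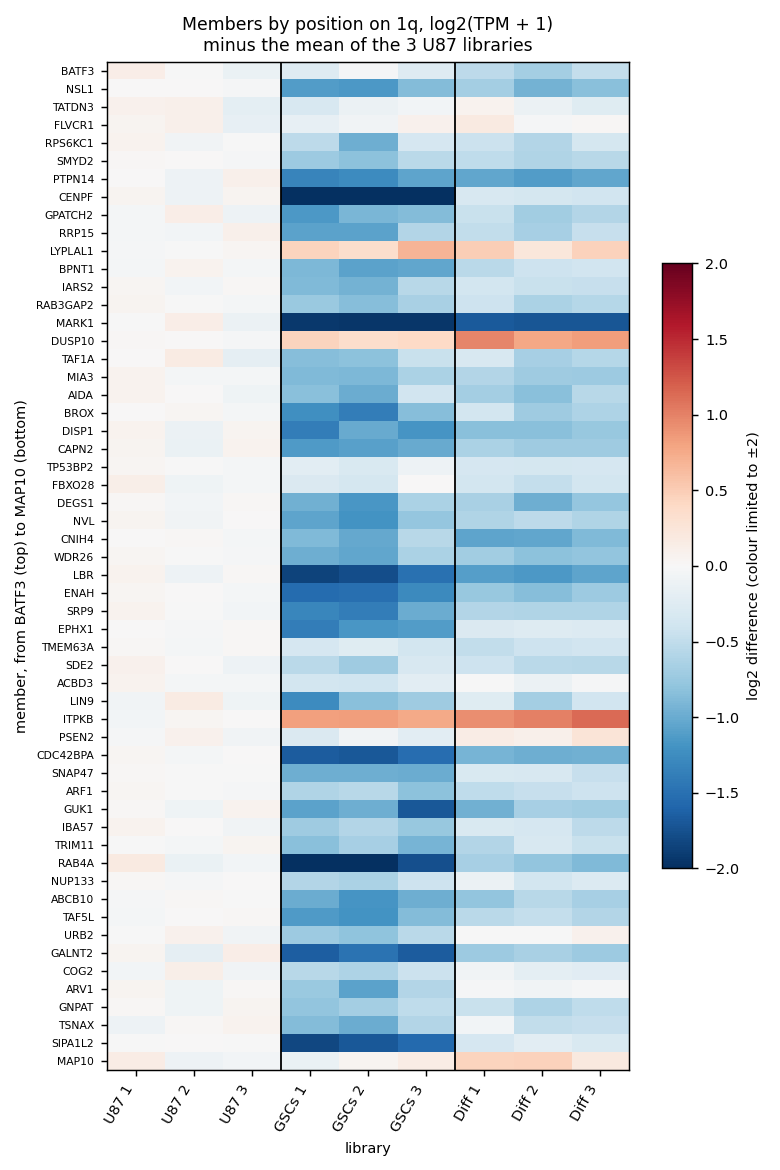
Difference of log2(TPM + 1) from the mean of the 3 U87 libraries for the 56 members with a mean above 1 TPM (rows, in order along the chromosome) in the 9 libraries (columns). Blue is lower and red is higher than U87, with colours limited to 2 in either direction. Most rows are darkest blue in the 3 GSC columns and paler in the 3 Diff columns, and LYPLAL1, DUSP10 and ITPKB are red in both lines.

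Along the chromosome, bin medians stepped down at the lower end of the stretch and stayed lower past its upper end. The stretch was placed by these same values, so a step at its lower end was partly set in advance. Gene by gene the edge was not sharp. BATF3, TATDN3 and FLVCR1, at -0.18, -0.16 and -0.04, overlapped U87 in GSCs. In the bin before BATF3, 5 of 18 genes lay below 0 in GSCs, among them PLXNA2 at -4.12 and NEK2 at -1.74. In bins of 5 Mb counted from the lower coordinate of BATF3, the median difference of GSCs from U87 over all tested protein-coding genes was 0.40 in the bin before BATF3 (18 genes). It was -0.66, -0.72, -0.90 and -0.81 in the 4 bins that hold most of the stretch (12, 14, 24 and 30 genes). For Diff cells the same 5 bins had medians of 0.20, -0.40, -0.48, -0.53 and -0.46. The 25 protein-coding genes of the stretch that are not members had a median of -0.61 in GSCs and -0.38 in Diff cells against U87, with 18 of 25 called lower in GSCs (23.3% of all genes) and 12 of 25 in Diff cells (20.5% of all genes). Because the stretch was located by these contrasts, the values of its unlisted genes are also a description and no independent check. The 54 other tested genes of the stretch, which are annotated as other types, had medians of -0.46 and -0.32. Of them 19 were called lower in each line (35.2%, beside 23.3% and 20.5% of all genes). Another 6 and 4 were called higher (11.1% and 7.41%, beside 25.3% and 18.9% of all genes), and 29 and 31 were not called. Beyond the stretch, 45 tested protein-coding genes reach to the end of the chromosome, with medians of -0.59 and -0.28, and 30 and 20 of them were called lower, beside the same shares of all genes. Between 150 Mb and the stretch, 379 genes had medians of -0.01 and -0.02. On chromosome 1 below 120 Mb, 683 genes had medians of -0.04 and -0.01.

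The genes next to the ends of the stretch were mixed. Before BATF3, PPP2R5A, a regulatory subunit of protein phosphatase 2A, had 23.4 ± 1.37 TPM in U87 and 31.6 ± 4.28 in GSCs (SD, n = 3). NENF, a secreted neurotrophic factor, had 70.3 ± 3.72 and 73.9 ± 6.21 TPM. ATF3, a stress-induced transcription factor, had 7.502 ± 0.703 TPM in U87, 29.9 ± 3.64 in GSCs and 6.65 ± 0.331 in Diff cells. After MAP10 came NTPCR with 5.81 ± 0.324 and 6.11 ± 0.6496 TPM in U87 and GSCs, PCNX2 with 25.97 ± 0.9599 and 15.4 ± 0.139 TPM, and the kinase gene MAP3K21 with 2.99 ± 0.466 and 4.39 ± 0.444 TPM. PCNX2 was thus lower in GSCs just outside the list, and MAP3K21 was higher.

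Among the 25 protein-coding genes of the stretch outside the list, the 5 with the highest mean level were RNF187, CNIH3, HHIPL2, KCTD3 and EGLN1. RNF187, a ubiquitin ligase, had 96.6 ± 6.85 TPM in U87, 35.1 ± 2.75 in GSCs and 43.4 ± 0.686 in Diff cells (SD, n = 3). EGLN1, the prolyl hydroxylase that marks HIF for degradation, had 35.6 ± 2.39, 8.74 ± 1.71 and 10.7 ± 1.09 TPM, a log2 difference of -1.92 in GSCs and -1.65 in Diff cells against U87. KCTD3 had 26.3 ± 1.49, 15.5 ± 1.48 and 22.0 ± 0.5201 TPM. CNIH3, a cornichon protein of cargo export and glutamate receptors, had 46.1 ± 1.08, 40.4 ± 2.08 and 30.2 ± 2.44 TPM and was lowest in Diff cells. HHIPL2 had 30.9 ± 0.752, 26.9 ± 0.235 and 30.4 ± 1.24 TPM, and its TPM ratio of Diff cells to U87 was 0.982, the nearest to 1 of these 5.

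Members were listed for lower values in GSCs, so counts by class, here and below, repeat that choice. Genes of protein targeting, translation and ribosome assembly were called lower in GSCs in all 6 cases (23.3% of all genes). Their median log2 difference was -0.86 (range -1.22 to -0.69). SRP9 encodes a subunit of the signal recognition particle that binds the Alu end of its RNA, and its gene lies at chr1:225777813-225790466. SRP9 had 111, 104 and 101 TPM in the U87 libraries, 42.3, 40.1 and 52.6 in GSCs and 69.7, 69.3 and 69.3 in Diff cells. The 3 lines did not overlap, and the log2 difference was -1.22 in GSCs and -0.60 in Diff cells. IARS2, the mitochondrial isoleucyl-tRNA synthetase, had 86.1, 81.2 and 85.5 TPM in U87, 45.4, 43.4 and 57.2 in GSCs and 65.03, 61.3 and 61.2 in Diff cells, again in 3 separate ranges. URB2, a ribosome biogenesis factor, had 11.4, 12.1 and 10.8 TPM in U87, 6.498, 6.11 and 7.56 in GSCs and 11.4, 11.4 and 12.1 in Diff cells. URB2 in Diff cells overlapped U87, at a log2 difference of 0.02. Of the others, the pre-ribosome AAA ATPase NVL was at -1.01 in GSCs and -0.58 in Diff cells, the rRNA processing factor RRP15 at -0.91 and -0.54, and TSNAX, a partner of translin, at -0.81 and -0.33. Of the exon bases of TSNAX, 10.5% overlap another gene on the same strand, so reads there may have been shared.

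The secretory pathway and membrane traffic gave 10 members, and all 10 were lower in GSCs with separate ranges (26.6% of all genes), at a median log2 difference of -0.81. ARF1, the GTPase that recruits the COPI coat at the Golgi, had 269, 259.7 and 257 TPM in U87, 173, 178 and 148 in GSCs and 184, 189 and 196 in Diff cells. BROX, a Bro1-domain protein, had 52.6, 53.3 and 50.4 TPM in U87, 21.6, 19.4 and 28.5 in GSCs and 39.95, 31.5 and 33.7 in Diff cells. For both, the ranges of the 3 lines were apart. RAB4A, a GTPase of fast endosomal recycling, had the lowest GSC value of this class relative to U87. It stood at 5.88, 4.57 and 4.896 TPM in U87, 0.395, 0.474 and 0.805 in GSCs and 2.84, 2.52 and 2.29 in Diff cells, a TPM ratio of 0.109 in GSCs and 0.498 in Diff cells. Since 19.6% of its exon bases overlap another gene on the same strand, part of its reads may have been shared. ACBD3, a Golgi scaffold, had the smallest difference of the class, with 36.8, 34.4 and 34.3 TPM in U87, 26.9, 26.4 and 30.2 in GSCs and 35.02, 32.3 and 34.6 in Diff cells. The O-glycosylation enzyme GALNT2 was at -1.59 in GSCs and -0.70 in Diff cells on the log2 scale, and 13.3% of its exon bases lie opposite another gene. CNIH4, a cargo export receptor, was at -0.82 and -0.99. SNAP47, a SNARE with 35.3% of its exon bases opposite another gene, was at -0.98 and -0.36. The tethering subunit COG2 was at -0.53 and -0.16, the collagen export receptor MIA3 at -0.80 and -0.67, and RAB3GAP2, whose exons share 10.1% of their bases with another gene on the same strand, at -0.75 and -0.54.

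In chromosome segregation and the nuclear envelope, all 5 members were called lower in GSCs (23.3% of all genes). CENPF, at chr1:214603195-214664588, had 76.7, 69.1 and 76.9 TPM in U87, 11.7, 12.5 and 14.2 in GSCs and 58.9, 57.8 and 56.9 in Diff cells. The GSC libraries lay far below both other lines, at a log2 difference of -2.44 from U87, while Diff cells were at -0.35. NUP133, a scaffold subunit of the nuclear pore, had 28.3, 27.2 and 27.8 TPM in U87, 18.3, 17.6 and 20.5 in GSCs and 25.4, 21.3 and 22.9 in Diff cells. It had the smallest difference of these 5. LBR, the lamin B receptor of the inner nuclear membrane, which also has sterol reductase activity, was picked after its values were seen. LBR had 36.4, 32.1 and 35.2 TPM in U87, 8.88, 9.41 and 11.7 in GSCs and 15.6, 15.0 and 16.1 in Diff cells, 3 separate ranges with log2 differences of -1.70 and -1.10 from U87. The kinetochore gene NSL1 was at -1.04 and -0.82, and LIN9, a subunit of the MuvB complex that turns on cell cycle genes, was at -0.93 and -0.43.

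CENPF acts in mitosis and LIN9 regulates cell cycle genes, and genes of the G2 and M phases on other chromosomes also differed between the lines. Of 20 tested genes of the G2 and M phases off chromosome 1, 19 fell in GSCs against U87 and 0 rose (limma, adjusted over all 22909 genes), with a median log2 difference of -1.31 and all 20 values below 0. In Diff cells against U87, 12 fell and 8 did not pass (median -0.41, 1 value above 0). In Diff cells against GSCs, 18 rose and 0 fell (median 0.84), with all 20 values above 0. The background for these calls is that of all genes given above. The summed level of the whole list of 22 genes was 2551 to 2816 TPM in U87, 1050.0 to 1162 in GSCs and 1900.0 to 2012 in Diff cells. CENPE, a kinetochore motor on chromosome 4, had a log2 difference of -2.27 (adjusted p = 2.76e-06) and PLK1, a mitotic kinase, of -2.09 (adjusted p = 1.11e-07), sizes near that of CENPF; these 2 were picked after their values were seen. The part of these genes' difference in the values of CENPF and LIN9 was not tested. Without CENPF and LIN9, but with the kinetochore gene NSL1 kept, the summed members were 2157 ± 62.7 TPM in U87, 1164 ± 80.0 in GSCs and 1454 ± 42.3 in Diff cells.

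Kinases, phosphatases and other signaling genes were a mixed class, with 8 of 10 called lower in GSCs (23.3% of all genes) and 2 called higher (25.3% of all genes). PTPN14, a tyrosine phosphatase that restrains YAP, had 115, 107 and 124 TPM in U87, 45.6, 47.7 and 55.1 in GSCs and 55.5, 52.5 and 55.6 in Diff cells. GSCs and Diff cells overlapped, and both lay below U87. CDC42BPA, a kinase that acts with CDC42 on actomyosin, had 78.2, 73.98 and 76.8 TPM in U87, 23.3, 22.8 and 25.9 in GSCs and 39.7, 38.1 and 38.8 in Diff cells, in 3 separate ranges. MARK1, a kinase of microtubule-associated proteins, had 3.55, 4.01 and 3.23 TPM in U87, 0.1999, 0.189 and 0.185 in GSCs and 0.426, 0.403 and 0.407 in Diff cells. Its TPM ratio to U87 was 0.0532 in GSCs and 0.115 in Diff cells. MARK1 passed the limit of 1 TPM only through U87, and RHOU, which had a ratio of 0.0579 in GSCs, fell below that limit. The inositol trisphosphate kinase ITPKB had 0.512, 0.612 and 0.573 TPM in U87, 1.77, 1.79 and 1.65 in GSCs and 1.97, 2.14 and 2.44 in Diff cells. Its ratio to U87 was 3.07 in GSCs and 3.86 in Diff cells, and it passed the limit of 1 TPM only through these lines.

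DUSP10 and SIPA1L2 were also looked at per library, after their values were seen. DUSP10 had 26.4, 26.1 and 25.6 TPM in U87, 35.9, 33.7 and 34.7 in GSCs and 52.3, 45.3 and 47.3 in Diff cells, so it was lowest in U87 and highest in Diff cells with no overlap. SIPA1L2, a GTPase-activating protein of RAP, had 18.1, 18.3 and 18.1 TPM in U87, 4.45, 4.92 and 5.51 in GSCs and 14.1, 15.6 and 14.5 in Diff cells. It was low in GSCs and nearer to U87 in Diff cells, where all 3 libraries still lay below U87 (log2 difference -0.28). The p53-binding ASPP protein gene TP53BP2 differed little, at -0.20 in GSCs and -0.34 in Diff cells on the log2 scale. RPS6KC1, a sphingosine kinase binding protein, was at -0.61 and -0.46, the axin partner AIDA at -0.73 and -0.69, and DISP1, which releases Hedgehog ligands, at -1.19 and -0.81.

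**Figure D2:**
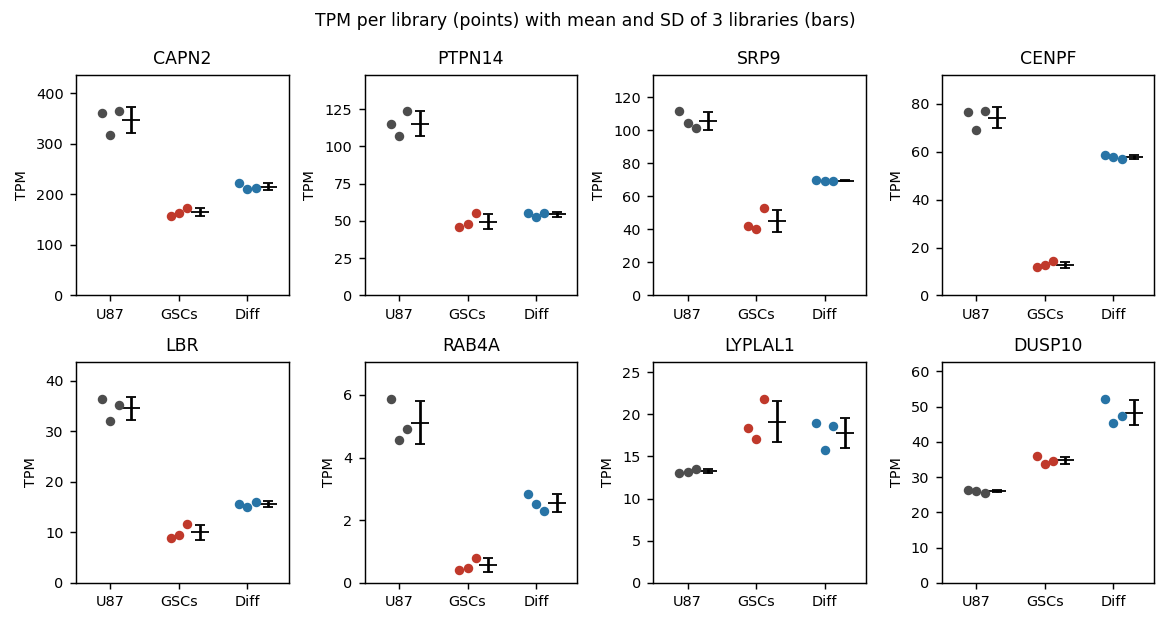
TPM of 8 members in each library (points) with the mean and SD of the 3 libraries of a line (bars), on axes that start at 0. CAPN2, PTPN14, SRP9, CENPF, LBR and RAB4A are lowest in GSCs, with Diff cells closest to GSCs for PTPN14 and closer to U87 for CENPF, while LYPLAL1 and DUSP10 are lowest in U87.

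Proteases and protein turnover gave 5 members, all below 0 in GSCs against U87, as were 11216 of all 22909 genes. Of the 5, 3 were called lower (23.3% of all genes), and PSEN2 and FBXO28 were not called. CAPN2, the large subunit of m-calpain, lies at chr1:223701593-223776018. It had 361, 318 and 364 TPM in U87, 158, 162 and 173 in GSCs and 223, 210.5 and 212 in Diff cells, with no overlap between lines. WDR26, a subunit of the CTLH ubiquitin ligase, had 40.05, 38.9 and 38.5 TPM in U87, 19.5, 18.5 and 24.8 in GSCs and 23.9, 21.8 and 22.1 in Diff cells, and GSCs overlapped Diff cells. PSEN2, a catalytic subunit of gamma-secretase, had 1.27, 1.44 and 1.21 TPM in U87, 0.894, 1.19 and 0.995 in GSCs and 1.56, 1.47 and 1.74 in Diff cells, so Diff cells were the highest of the lines at a low level. The ubiquitin ligase TRIM11 was at -0.81 in GSCs and -0.45 in Diff cells on the log2 scale, and the F-box protein gene FBXO28 at -0.22 and -0.40.

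Of 11 metabolic members, 10 lay below 0 in GSCs (11216 of all 22909 genes), with a class median of -0.80. In GSCs 8 of the 11 were called lower (23.3% of all genes) and 1 higher (25.3% of all genes). DEGS1, the desaturase of the last step of ceramide synthesis, had 194, 183 and 192 TPM in U87, 96.95, 83.8 and 122 in GSCs and 121, 95.8 and 110.5 in Diff cells. EPHX1, the microsomal epoxide hydrolase, had 63.4, 62.1 and 63.9 TPM in U87, 23.7, 27.7 and 28.6 in GSCs and 51.3, 52.4 and 51.8 in Diff cells. DEGS1 overlapped between GSCs and Diff cells, whereas EPHX1 in Diff cells lay nearer to U87. GUK1, guanylate kinase, had 46.01, 42.4 and 47.3 TPM in U87, 21.02, 22.4 and 13.2 in GSCs and 22.8, 28.2 and 27.4 in Diff cells. LYPLAL1, a lysophospholipase-like hydrolase, was the 1 member of the class above U87, with 13.1, 13.1 and 13.6 TPM in U87, 18.4, 17.1 and 21.9 in GSCs and 18.96, 15.7 and 18.7 in Diff cells.

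Among the remaining metabolic members, the mitochondrial transporter of erythroid heme synthesis ABCB10 was at -1.05 in GSCs and -0.67 in Diff cells on the log2 scale. The nucleotidase BPNT1 was at -1.001 and -0.45, the plasmalogen enzyme GNPAT at -0.66 and -0.52, and the iron-sulfur cluster factor IBA57 at -0.68 and -0.39. ARV1, a factor of sterol transport, was at -0.80 in GSCs and -0.04 in Diff cells, where it overlapped U87. FLVCR1, a heme and choline transporter, was at -0.04 and 0.06, and TATDN3 at -0.16 and -0.10; the libraries of these 2 overlapped between all lines.

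Transcription and chromatin genes were below 0 in all 6 cases in both lines against U87. Of all 22909 genes, 11216 lay below 0 in GSCs and 12183 in Diff cells. In GSCs 5 of the 6 were called lower (23.3% of all genes), all but BATF3. In Diff cells all 6 were called lower (20.5% of all genes). SMYD2, a lysine methyltransferase, had 32.4, 31.97 and 31.5 TPM in U87, 19.01, 17.6 and 21.6 in GSCs and 22.1, 20.8 and 21.4 in Diff cells. TAF5L, a subunit of the SAGA coactivator, had 17.1, 17.6 and 17.8 TPM in U87, 7.44, 7.08 and 9.17 in GSCs and 11.8, 12.3 and 11.3 in Diff cells. Both lay below U87 in every GSC and Diff library. BATF3, an AP-1 partner factor at the lower edge of the stretch, had 12.7, 11.4 and 10.4 TPM in U87, 9.496, 11.3 and 9.396 in GSCs and 7.69, 6.81 and 7.94 in Diff cells, so it was lowest in Diff cells. GPATCH2 was at -0.98 in GSCs and -0.58 in Diff cells on the log2 scale, the RNA polymerase I factor TAF1A at -0.71 and -0.52, and SDE2, a factor of splicing and replication stress, at -0.52 and -0.50.

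The cytoskeleton and membrane class has 3 members above 1 TPM. ENAH, an actin polymerase of the Ena/VASP family, had 55.1, 53.97 and 52.02 TPM in U87, 17.9, 18.3 and 21.7 in GSCs and 31.2, 29.1 and 32.1 in Diff cells, in 3 separate ranges. TMEM63A, a mechanosensitive ion channel, had 17.4, 16.6 and 17.4 TPM in U87, 13.3, 14.2 and 13.0 in GSCs and 11.8, 12.6 and 12.9 in Diff cells, lowest in Diff cells. MAP10, a microtubule-associated protein at the upper edge of the stretch, had 5.05, 4.09 and 4.21 TPM in U87, 3.96, 4.66 and 5.05 in GSCs and 6.43, 6.51 and 5.19 in Diff cells. In GSCs it overlapped U87.

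Neighbours that start within 1000 bases of each other did not always have the same values. NSL1 had 10.4, 10.5 and 10.1 TPM in U87, 4.25, 4.13 and 5.22 in GSCs and 6.11, 4.896 and 5.35 in Diff cells. TATDN3, which starts 46 bases away on the other strand, had 9.03, 9.06 and 7.26 TPM in U87, 6.51, 7.698 and 8.09 in GSCs and 8.87, 7.67 and 6.94 in Diff cells. NSL1 was thus lower in both lines while TATDN3 overlapped in all. TAF5L and URB2 start 187 bases apart, and their log2 differences were -1.06 and -0.69 in GSCs but -0.53 and 0.02 in Diff cells. AIDA and BROX, 657 bases apart, were at -0.73 and -1.15 in GSCs and at -0.69 and -0.57 in Diff cells. ARV1 and its neighbour TTC13, 106 bases apart, were at -0.80 and -0.87 in GSCs and at -0.04 and -0.50 in Diff cells. GNPAT and C1orf131, 20 bases apart, were at -0.66 and -0.83 in GSCs and at -0.52 and -0.46 in Diff cells. GPATCH2 starts 242 bases from SPATA17, which was below the limit of 1 TPM.

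The complex partners and paralogs of members, which the choice of members did not use, were tested next. Of 108 listed genes, 9 lie on chromosome 1 and were set aside, 11 others were below 1 TPM, and 88 on other chromosomes were tested (limma, adjusted over all 22909 genes). In GSCs against U87, 22 of 88 fell, 21 rose and 45 did not pass, with a median log2 difference of -0.03. In Diff cells against U87, 19 fell (21.6%, beside 20.5% of all genes), 16 rose (18.2%, beside 18.9%) and 53 did not pass (median -0.05). The 19 became 11 without RN7SL1 and mitochondrial genes in the TPM, and between 10 and 12 without U87 replicate 1 or 3 or any 1 Diff library. In Diff cells against GSCs, 14 fell (15.9%, beside 19.8% of all genes), 16 rose (18.2%, beside 15.0%) and 58 did not pass (median 0.01). In GSCs against U87, 22 of the 88 fell, beside 23.3% of all genes, and 23.9% rose, beside 25.3%. Over tested protein-coding genes alone, 30.1% fell and 30.1% rose in GSCs, and 24.4% fell and 25.8% rose in Diff cells against U87. The 55 complex partners alone gave 13 that fell (23.6%) and 14 that rose (25.5%) in GSCs. The 33 paralogs gave 9 (27.3%) and 7 (21.2%), and the shares of all genes were 23.3% and 25.3%.

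Within the signal recognition particle, SRP9 pairs with SRP14, which had 142 ± 5.83 TPM in U87 and 114 ± 10.1 in GSCs (SD, n = 3), a log2 difference of -0.32 (adjusted p = 0.0167), and 0.18 in Diff cells (adjusted p = 0.139). SRP68 and SRP72 fell as well, with -0.24 (adjusted p = 0.0176) and -0.36 (adjusted p = 0.00787) in GSCs. SRP19 and SRP54, at -0.35 and 0.14, did not pass the test. The TPM ratio of SRP9 to SRP14 was 0.752, 0.766 and 0.708 in U87, 0.356, 0.389 and 0.432 in GSCs and 0.383, 0.454 and 0.454 in Diff cells. The ratio in both derived lines lay below every U87 library.

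COG2 is 1 of 8 subunits of the COG tethering complex, and the other 7 moved in both directions in GSCs. COG1, COG5 and COG6 rose by 0.31, 0.45 and 0.47 (adjusted p = 0.00598, 0.0022 and 0.00918), COG4 and COG8 had -0.56 and -0.31 (adjusted p = 0.00068 and 0.0303), and COG3 and COG7 did not pass. In the Y complex of the nuclear pore, the 8 partners of NUP133 gave 1 that fell, NUP43 at -0.29 (adjusted p = 0.0284), 1 that rose, SEH1L at 0.36 (adjusted p = 0.00392), and 6 that did not pass. In SL1, the selectivity factor of RNA polymerase I, TAF1D rose by 0.87 (adjusted p = 4.48e-05) and TAF1B had -0.38 (adjusted p = 0.0443) beside -0.71 for the member TAF1A, while TAF1C and TBP did not pass.

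**Figure D3:**
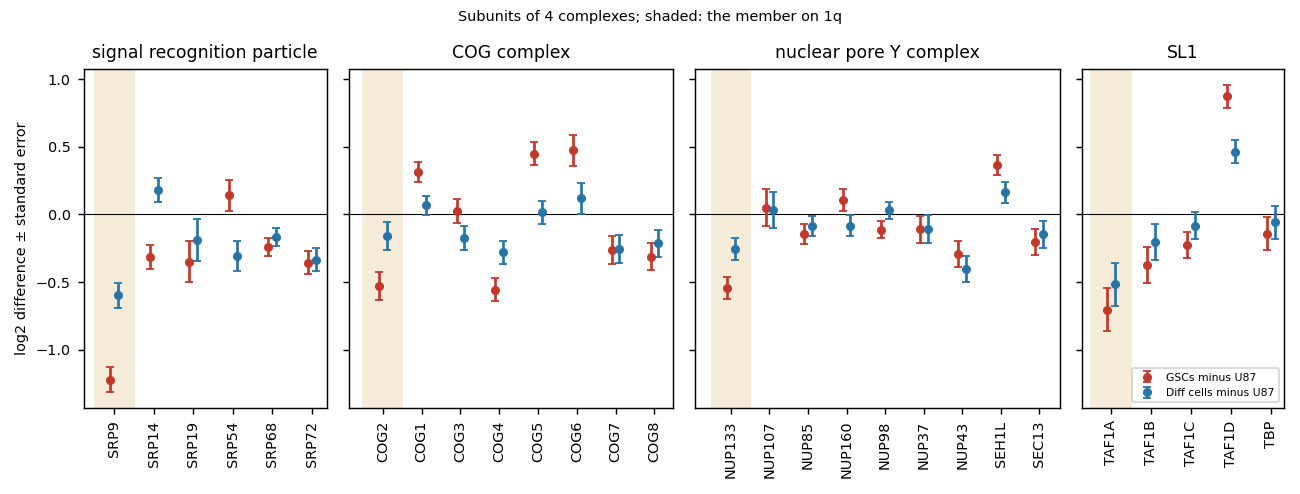
Difference of log2(TPM + 1) from U87 with its standard error for subunits of 4 complexes, in GSCs (red) and Diff cells (blue), with the member on chromosome 1q shaded. SRP9 and TAF1A are the lowest subunits of their complexes in both lines, NUP133 is the lowest of its complex in GSCs, and COG2 in GSCs is matched by COG4.

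Other partners of members varied in direction. RAB3GAP1, the catalytic partner of RAB3GAP2, had 10.4 ± 0.638 TPM in U87 and 10.6 ± 1.24 in GSCs (SD, n = 3), and the ratio of RAB3GAP2 to it was 1.31 ± 0.0518 in U87, 0.731 ± 0.0388 in GSCs and 0.858 ± 0.0452 in Diff cells. MIA2, the partner of MIA3 at exit sites of the endoplasmic reticulum, rose by 0.31 in GSCs (adjusted p = 0.0318), and the ratio of MIA3 to MIA2 was 3.22 ± 0.162, 1.41 ± 0.0248 and 1.76 ± 0.138. TSN, the partner of TSNAX, was at -0.07 (adjusted p = 0.609), and AGPS, which acts after GNPAT in plasmalogen synthesis, was at -0.04 (adjusted p = 0.809). CAPNS1, the small calpain subunit, fell by 0.37 in GSCs (adjusted p = 0.00164), and CAPN1 was at -0.22 in GSCs (adjusted p = 0.0622) and rose by 0.48 in Diff cells (adjusted p = 0.00182). For LIN9, the partner factors MYBL2 and FOXM1 had -1.50 and -0.91 in GSCs (adjusted p = 1.16e-06 and 1.97e-06), while LIN52 rose by 0.41 (adjusted p = 0.0484) and LIN54 at 0.13 did not pass. For TAF5L, the SAGA subunits KAT2A, TRRAP and SUPT7L rose by 0.52, 0.64 and 0.24 in GSCs (adjusted p = 0.000483, 1.06e-05 and 0.0287), and TAF6L, KAT2B and TADA3, at 0.24, -0.12 and -0.11, did not pass. In Diff cells KAT2B and TADA3 fell by 0.33 and 0.19 (adjusted p = 0.0341 and 0.0466).

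Paralogs of members showed a range of values as well. ARF6 rose by 0.59 in GSCs (adjusted p = 0.000123), and ARF3, ARF4 and ARF5, at -0.07, 0.17 and 0.20, did not pass. For ENAH, VASP had -0.95 (adjusted p = 8.41e-06) and EVL rose by 1.21 (adjusted p = 7.17e-05), so the Ena/VASP family held members of both directions. For CDC42BPA, CDC42BPB was at -0.17 (adjusted p = 0.0553). For MARK1, MARK2 had -0.28 (adjusted p = 0.00513), and MARK3 and MARK4, at 0.06 and 0.10, did not pass. For SIPA1L2, SIPA1L1 rose by 0.47 and SIPA1L3 had -0.68 (adjusted p = 0.00039 and 0.000272). For CNIH4, CNIH2 had -1.45 (adjusted p = 3.49e-05), and CNIH1 at -0.21 did not pass. For ITPKB, which was higher than in U87, ITPKA had -0.92 (adjusted p = 0.00054) and ITPKC at -0.28 did not pass, and for DUSP10, DUSP16 had -0.31 (adjusted p = 0.00618).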

How the data were processed

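Expression values were deposited by the authors as log2(TPM + 1), with 60606 genes in rows and 9 libraries in columns; the TPM of each library summed to 1000000. Per the labels' processing notes, FastQC 0.11.9, Trimmomatic 0.39, HISAT2 2.2.1, featureCounts 2.0.5, R 4.2.0 and GRCh38 were used; annotation and strand setting are not given in the sources used here. The labels describe removal of ribosomal RNA, whereas the study's methods describe oligo(dT) selection.

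Coordinates came from GENCODE 29 (53498 genes matched) and promoters from RefSeq. The 22909 genes with a mean above 1 TPM entered a linear model of the 3 lines (limma 3.58.1, R 4.3.3; moderated variances with an intensity trend). Adjustment followed Benjamini-Hochberg for each comparison separately, at a threshold of 0.05. Figures were drawn with matplotlib 3.10.9. The fit was first tested on simulated data.

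The members and all gene lists were chosen with earlier results of these data known. Per-library values are given for up to 4 members of each role, namely the 2 with the highest mean TPM and those with the lowest and highest difference of GSCs from U87, for neighbour pairs, for the 5 most abundant unlisted genes of the stretch and for 3 genes beside each end, and exceptions are named. Alternatives changed the pseudocount, filter, scaling, trend, lines in the fit, call rule and libraries.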

Additional observations from a re-analysis of the deposited data

How the results depend on the processing

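Changes of the model, of the lines in the fit or of the call rule leave the median difference of the members as it is by construction. With the other scalings, filters and pseudocount it ran from -0.91 to -0.81 for GSCs against U87, from -0.53 to -0.45 for Diff cells against U87 and from 0.34 to 0.43 for Diff cells against GSCs; quantile normalization gave the -0.45, a shift above the spread between libraries, of which the cause was not tested. Leaving out each library in turn gave -0.92 to -0.74, -0.54 to -0.47 and 0.29 to 0.35, and the direction was kept in all 3 comparisons. A log2 difference under -1 as a second condition reduced the members called lower from 47 to 20, from 42 to 3 and from 1 to 0, by construction. BATF3, the 1 member called lower in Diff cells against GSCs, was lost with quantile normalization (0 calls), with the replicate block (0 calls) and without either of 2 Diff libraries (replicates 1 and 2; 0 to 1 calls over all omissions). Partners and paralogs that fell in Diff cells against U87 numbered 19, but 11 after RN7SL1 and mitochondrial genes were left out of the TPM and 10 to 23 when 1 library was omitted, with 10, 12, 12, 12 and 11 without U87 replicates 1 and 3 and Diff replicates 1, 2 and 3. In Diff cells against GSCs they numbered 14, and 9 with quantile normalization. The cause was not tested.

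Replicate numbers did not pair the libraries: same-numbered libraries of different lines correlated at -0.042 to 0.049 in their deviations from the line means, and others at -0.058 to 0.054. With the replicate block, 47 members were called lower in GSCs and 41 in Diff cells against U87, and without it 47 and 42. The share of all genes called lower with the block is not given here. Over the alternative settings, 3813 to 6226 of all genes were called lower in GSCs and 3263 to 5346 in Diff cells. The number of genes tested varied with the filter, so these counts are not shares. Depth is not kept in TPM, so values near or below 1 TPM, as for MARK1, ITPKB, PSEN2 and RAB4A in GSCs, have a precision known only from the spread of 3 libraries.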
